A study of Homo sapiens with 24 samples.

Results

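Nuclear-encoded subunits of the oxidative phosphorylation complexes were measured on 98 probes, of 19171 probes tested in all, in 4 lines of squamous cell carcinoma of the head and neck, each as an erlotinib-sensitive and an erlotinib-resistant culture. The probes were chosen by gene symbol: NDUFA, NDUFB, NDUFC, NDUFS and NDUFV for complex I, SDHA to SDHD for complex II, UQCR for complex III, COX4 to COX8 for complex IV, and ATP5F1, ATP5M and ATP5P for complex V, without assembly factors and pseudogenes. Of 109 candidate probes for 82 genes, 98 were detected on at least 3 of the 24 arrays, that is, with a detection p under 0.05 against negative control beads. They stand for 76 of 14077 tested genes, 36 of complex I, 3 of complex II, 8 of complex III, 12 of complex IV and 17 of complex V. On all 24 arrays, 87 of the 98 probes were detected. The 11 probes left out include all those of COX4I2, COX6A2, COX7A1, COX7B2 and COX8C, isoforms known from muscle, lung or testis. Just inside the limit were a COX6B2 probe detected on 4 arrays and the NDUFS6 probe detected on 5, and just outside was an ATP5ME probe detected on 2.

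Carcinomas of the tongue gave rise to SCC-25 and Cal-27, 1 of the pharynx to FaDu and 1 of the larynx to SQ20B. Each line was measured as its parental, sensitive culture and as a resistant culture developed from it, with 3 arrays for each of the 8 groups. Every culture, control or not, received the vehicle, 0.01% DMSO, for 48 h before RNA was taken. Resistant cells were grown in medium with erlotinib, an inhibitor of the epidermal growth factor receptor kinase, at a concentration that the sources used here do not give, nor do they say whether the drug was present in those 48 h. SCC-25 was grown in a mixture of DMEM and Ham's F12 with hydrocortisone, and the other 3 lines in DMEM. The labels name no separate cultures behind the 3 arrays of a group, so p-values measure the spread between these samples, which may be technical. They also name no separately derived resistant cultures, so resistance and any other difference between the cultures cannot be told apart.

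Levels are normalized log2 intensities, and a change is the log2 level of resistant minus sensitive cells ± the standard error that limma gives it, over 3 arrays in each group. A gene was read on its brightest probe, and rose or fell where limma's p, adjusted over all tested probes, was under 0.05. SCC-25 and Cal-27 were normalized in 1 table and FaDu and SQ20B in another, so levels are compared within a table. Arrays of a group correlated at 0.991 to 0.995 across probes, and 39.52% to 45.04% of probes were detected per array, with a median of 19 to 21 beads a probe. KRT5, CDH1, EPCAM and SFN, markers of squamous epithelium, were detected on all 24 arrays, and KRT14 on 18, with 0 of 6 in SQ20B. Of 14 markers of other cell types, CD3E, KDR and TYR were detected on 0 arrays, PTPRC and MLANA on 1, PDGFRB on 3, PECAM1 on 4, DCN on 6, VWF on 12, PMEL on 14, COL1A1 on 16, COL1A2 on 17, CDH5 on 18 and CD14 on 24. In bulk RNA, fewer cells of a type and less RNA per cell cannot be told apart.

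Oxidative phosphorylation makes most of the ATP of a respiring cell. Complexes I and II pass electrons from NADH and succinate to ubiquinone, complex III passes them to cytochrome c and complex IV to oxygen, and complexes I, III and IV pump protons that drive ATP synthesis in complex V. Complexes I, III, IV and V join subunits encoded in the nucleus with a few encoded in mitochondrial DNA, whereas complex II is encoded in the nucleus alone. The nuclear genes are known targets of the transcription factors NRF1, GABP (an ETS factor) and YY1.

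The promoters of 4 subunit genes are shown because their changes set the lines apart: SDHD was called in Cal-27 and in no other line, ATP5MJ had the largest fall in Cal-27, COX6B1 rose in SCC-25 and fell in FaDu and SQ20B, and ATP5MC1 had the largest fall in SQ20B. Each runs from 250 bases before to 50 bases after the start of the gene, from RefSeq on GRCh38.p14, on the strand of the gene. Capitals mark matches on either strand to the motifs GCGCA and GCGC parted by 1 base of NRF1, CCGGAAG of ETS factors and AAGATGGCG of YY1, and a match is a description of letters, not a bound site. SDHD lies at chr11:112086623-112086922 on the plus strand, ATP5MJ at chr14:103921480-103921779 on the minus strand, COX6B1 at chr19:35648073-35648372 on the plus strand and ATP5MC1 at chr17:48892537-48892836 on the plus strand.
SDHD: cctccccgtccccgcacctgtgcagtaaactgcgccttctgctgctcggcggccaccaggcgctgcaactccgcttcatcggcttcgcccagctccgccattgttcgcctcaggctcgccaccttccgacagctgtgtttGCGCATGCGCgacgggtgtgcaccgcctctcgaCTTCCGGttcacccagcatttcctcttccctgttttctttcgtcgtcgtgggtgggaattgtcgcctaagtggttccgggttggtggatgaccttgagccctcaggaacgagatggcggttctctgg
ATP5MJ: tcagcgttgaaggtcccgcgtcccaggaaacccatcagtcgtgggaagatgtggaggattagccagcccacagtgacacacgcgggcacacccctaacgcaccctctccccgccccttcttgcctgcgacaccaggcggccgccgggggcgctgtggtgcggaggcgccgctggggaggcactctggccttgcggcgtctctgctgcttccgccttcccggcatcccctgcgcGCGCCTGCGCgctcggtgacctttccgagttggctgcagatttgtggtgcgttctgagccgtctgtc
COX6B1: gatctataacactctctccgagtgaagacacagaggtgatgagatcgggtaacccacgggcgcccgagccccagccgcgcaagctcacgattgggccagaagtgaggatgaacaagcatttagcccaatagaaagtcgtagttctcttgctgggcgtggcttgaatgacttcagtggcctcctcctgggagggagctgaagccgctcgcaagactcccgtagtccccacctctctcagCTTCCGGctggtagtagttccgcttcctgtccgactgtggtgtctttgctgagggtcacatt
ATP5MC1: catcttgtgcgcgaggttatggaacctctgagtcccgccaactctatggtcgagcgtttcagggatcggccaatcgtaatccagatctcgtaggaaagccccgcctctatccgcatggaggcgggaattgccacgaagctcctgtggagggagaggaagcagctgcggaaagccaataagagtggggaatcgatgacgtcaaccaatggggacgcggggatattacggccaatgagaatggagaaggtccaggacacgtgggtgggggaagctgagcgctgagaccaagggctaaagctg

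The SDHD window held 1 NRF1 and 1 ETS motif, the ATP5MJ window 1 NRF1 motif, the COX6B1 window 1 ETS motif and the ATP5MC1 window none of the 3. RefSeq promoters of this length were at hand for 64 of the 76 genes. The set compared with them, all 27305 promoters, was not limited to genes detected here, whereas the subunit genes were. Shares among promoters of all detected genes were not counted. The NRF1 motif was in 23.4% of these, against 6.28% of all 27305 promoters, the ETS motif in 29.7% against 10.7%, and the YY1 motif in 10.9% against 1.85%. NRF1 or ETS motifs were in 31 of the 64 windows, or 48.4%, against 15.7% of all. The CCAAT box was in 34.4% against 35.7%, the motif CACGTG in 10.9% against 7.43% and the motif GGGCGG, bound by SP1, in 60.9% against 44.6%. Among subunit genes that fell in both FaDu and SQ20B, 27.8% of 18 windows held the NRF1 motif and 27.8% the ETS motif, beside 21.7% and 30.4% of the other 46. The SP1 motif was in 44.4% of the 18 and 67.4% of the 46, the CCAAT box in 44.4% and 30.4%, and the YY1 motif and CACGTG each in 11.1% and 10.9%.

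In resistant SCC-25 cells, 21 of the 76 subunit genes rose, 5 fell and 50 were not called, while 14.7% of all tested genes rose and 15% fell. The median change was 0.10, against 0.00 for all genes. NDUFA2, ATP5F1E, NDUFB11 and COX6B1 had the highest changes, and none reached 2-fold. By complex, 9 of 36 genes rose and 1 fell in complex I, 0 of 3 changed in complex II, 2 of 8 rose in complex III, 5 of 12 rose and 1 fell in complex IV, and 5 of 17 rose and 3 fell in complex V. The medians were 0.10, 0.00, 0.08, 0.21 and 0.11 in that order. Without sensitive replicate 3, resistant replicate 2 or resistant replicate 3, the genes that fell numbered 3, 2 and 3.

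Of the 6 measured core subunits of complex I, the part that carries electrons from NADH to ubiquinone, 4 rose in SCC-25, with a median of 0.32. NDUFS7, which holds the iron-sulfur cluster next to the quinone site, read 10.01, 10.11 and 10.26 in sensitive and 10.45, 10.57 and 10.53 in resistant arrays, a change of 0.39 ± 0.09 (adjusted p = 0.00479). NDUFS8, another iron-sulfur subunit, changed by 0.45 ± 0.09 and NDUFS3 by 0.25 ± 0.08, with adjusted p of 0.00218 and 0.0326. NDUFS1, the largest iron-sulfur subunit, read 5.21, 4.64 and 5.34 against 5.59, 5.41 and 5.77. Resistant arrays lay above all sensitive arrays for each of these 4 genes. Separation of the groups, in either direction, was common in SCC-25. It was seen for 5721 of all 14077 tested genes and for 36 of the 76 subunit genes. NDUFV1, which binds NADH and FMN, changed by 0.10 ± 0.09 and NDUFV2 by 0.24 ± 0.12, and neither was called.

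Accessory subunits of complex I, which surround the core and are needed for its assembly or stability, had 5 of 30 higher in SCC-25, or 16.7%, near the 14.7% of all genes, with 1 lower and a median of 0.07. NDUFA2 had the largest rise of any subunit there, from 10.28, 10.31 and 10.02 to 11.07, 10.84 and 10.79 (change 0.70 ± 0.11, adjusted p = 0.000391). NDUFB11, encoded on the X chromosome, read 10.69, 10.64 and 10.73 against 11.44, 11.40 and 11.07, and resistant replicate 3 lay closest to the sensitive arrays. NDUFA3 changed by 0.52 ± 0.11, NDUFB10 by 0.40 ± 0.08 and NDUFA13, also known as GRIM-19, by 0.39 ± 0.11. NDUFA6, a subunit of the LYR family, was the 1 that fell, by 0.26 ± 0.08 (adjusted p = 0.0288).

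In complex II of SCC-25, SDHA, the flavoprotein that oxidizes succinate, changed by -0.21 ± 0.09, and the membrane anchors SDHC and SDHD by 0.10 ± 0.08 and 0.00 ± 0.11. None of the 3 was called, though a second SDHC probe rose by 0.31. In complex III, UQCRQ, a small subunit near the quinone sites, rose from 12.33, 12.21 and 12.13 to 12.71, 12.74 and 12.64 (change 0.47 ± 0.08, adjusted p = 0.000889). UQCRB, the ubiquinone-binding protein, read 7.54, 7.55 and 7.67 against 7.96, 7.96 and 7.98, a change of 0.38 ± 0.10 (adjusted p = 0.0115). Neither gene's groups overlapped. The mean of the 3 UQCRB probes changed by 0.15, which was not called (adjusted p = 0.274).

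Complex IV had the highest median of the 5 in SCC-25, 0.21, but with no detection filter it was 0.095, beside 0.098 for complex I and 0.11 for complex V. Without the filter, complex IV also holds COX4I2, COX6A2, COX7A1, COX7B2 and COX8C, which were detected on 0 arrays. COX6B1, which faces the intermembrane space where cytochrome c docks, rose from 9.36, 9.65 and 9.54 to 10.28, 10.15 and 9.97 (change 0.62 ± 0.11, adjusted p = 0.00075). COX4I1 (0.30 ± 0.08), COX5B (0.31 ± 0.08) and COX7C (0.32 ± 0.09), ubiquitous subunits of the enzyme, also rose. COX7A2L, which is known to join complexes III and IV in supercomplexes, fell by 0.30 ± 0.09 (adjusted p = 0.0179). COX6B2, the testis isoform, was called higher, but it was detected on 1 resistant array alone, so the size of its change cannot be read.

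Complex V moved both ways in SCC-25. ATP5F1E, the epsilon subunit of the F1 head, rose from 7.56, 7.99 and 8.12 to 8.56, 8.61 and 8.49, while ATP5F1A, the alpha subunit, fell from 12.72, 12.69 and 12.63 to 12.24, 12.24 and 12.21. The changes were 0.66 ± 0.13 and -0.45 ± 0.09, with adjusted p of 0.00193 and 0.00156. In both, the groups stood apart on all arrays. In the peripheral stalk, which holds the head still, ATP5PD changed by 0.39 ± 0.09 and ATP5PF by 0.27 ± 0.08, and ATP5PB fell by 0.31 ± 0.08. ATP5ME, a subunit at the dimer interface, rose by 0.46 ± 0.09. ATP5MK, also called DAPIT, was detected on all 3 sensitive and on 0 resistant arrays and was at least 1.24-fold lower in resistant cells (adjusted p = 0.0172).

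**Figure D1:**
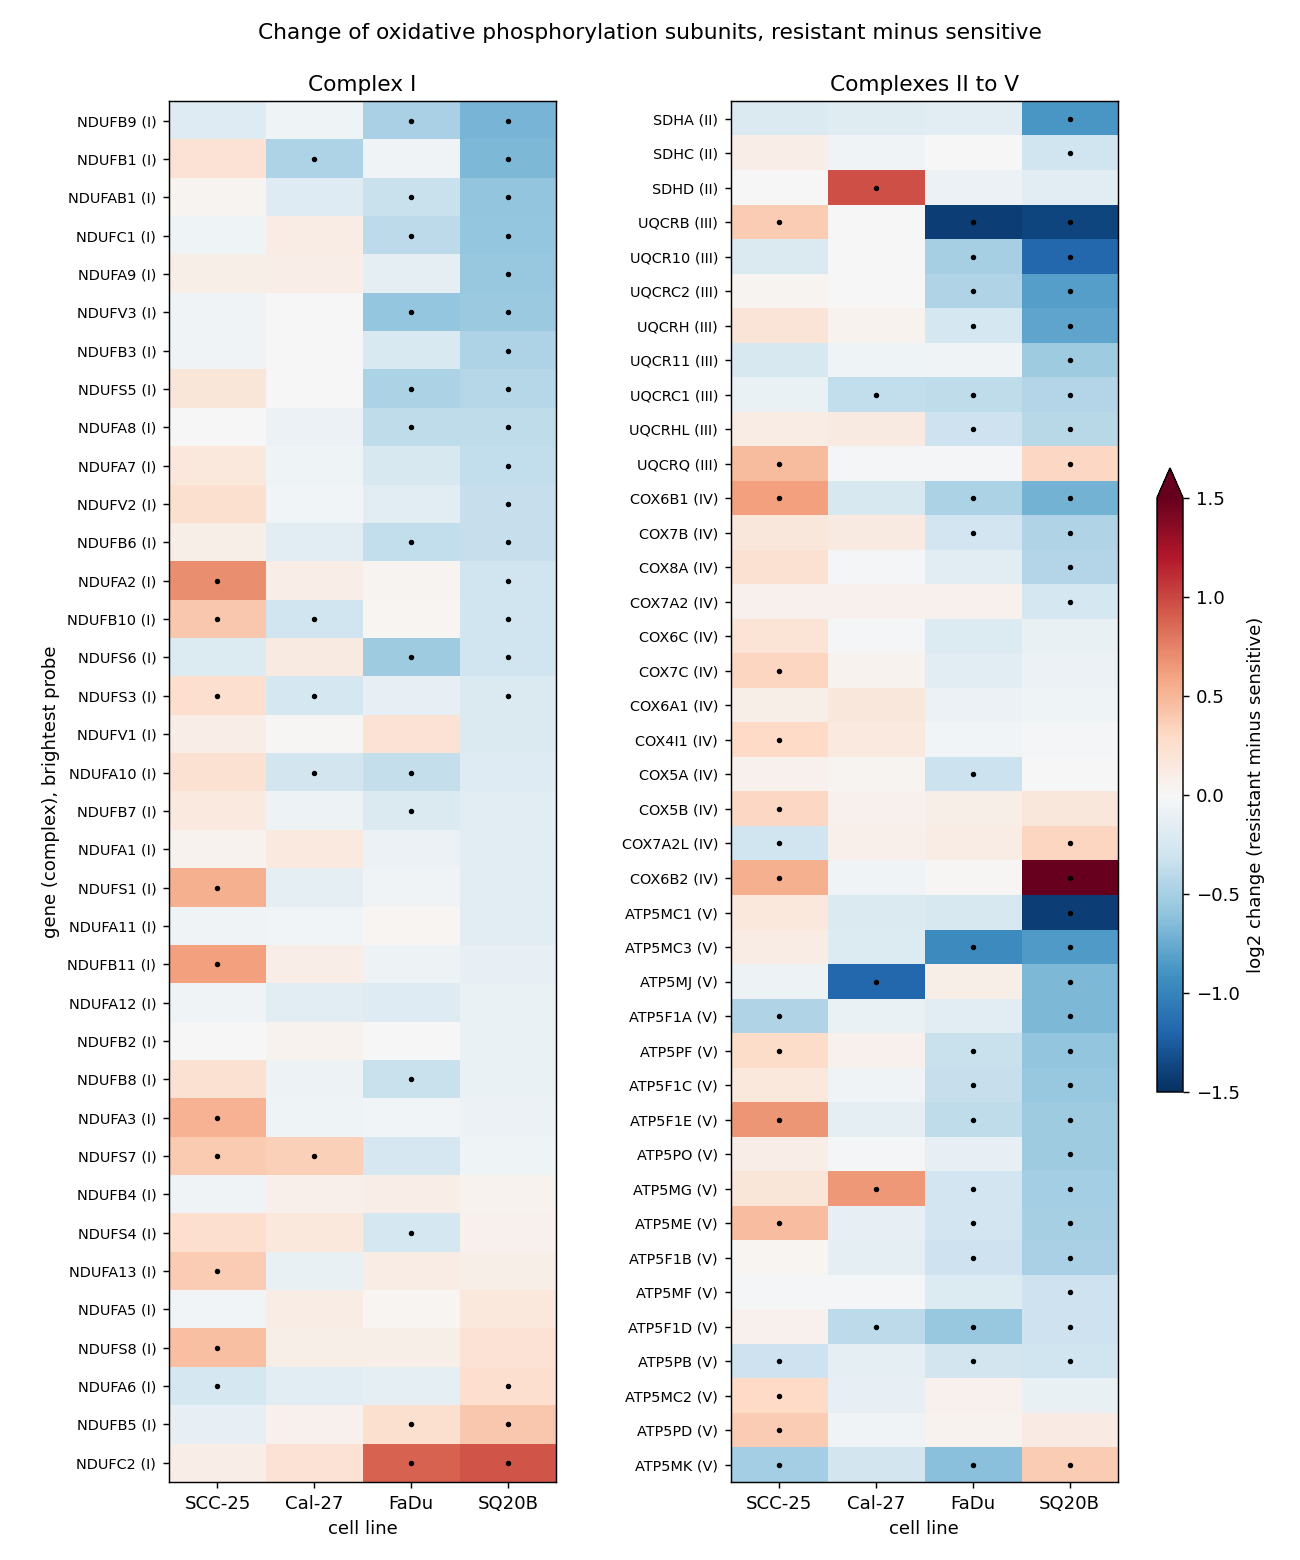
Log2 change (resistant minus sensitive, colour scale from -1.5 to 1.5) of each of the 76 subunit genes, in rows by complex, in the 4 lines, in columns. Dots mark adjusted p under 0.05. SCC-25 is mostly red, Cal-27 has few dots, and FaDu and SQ20B are mostly blue, with 31 and 43 genes lower. COX6B2 in SQ20B, at 1.87, lies above the scale, and its sensitive arrays were not well above background.

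In resistant Cal-27 cells, 3 subunit genes rose, 7 fell and 66 were not called, beside 16% of all tested genes higher and 16.8% lower. The median change was -0.03, against -0.01 for all genes. The largest changes were a rise of SDHD, of complex II, and a fall of ATP5MJ, of complex V. The complex medians were -0.02 for I, -0.05 for II, 0.00 for III, 0.06 for IV and -0.13 for V, and none of the 12 complex IV genes was called. Without sensitive replicate 1, sensitive replicate 2, resistant replicate 1 or resistant replicate 3, 4 genes fell in place of 7.

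SDHD, a membrane anchor of complex II whose promoter is shown above, rose in Cal-27 from 9.59, 9.44 and 9.46 to 10.55, 10.54 and 10.29. The change was 0.96 ± 0.11 (adjusted p = 1.55e-05), a 1.95-fold higher level, and all 3 resistant arrays lay above the sensitive ones. Its partner anchor SDHC changed by -0.05 ± 0.08 and SDHA by -0.18 ± 0.09, neither called, though a second SDHA probe fell by 0.31. SDHD was not called in the other lines, where it changed by -0.09 ± 0.10 in FaDu, -0.17 ± 0.10 in SQ20B and 0.00 ± 0.11 in SCC-25.

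ATP5MJ, a small membrane proteolipid of complex V, fell in Cal-27 from 9.09, 8.94 and 9.01 to 7.73, 7.93 and 7.86. This change of -1.17 ± 0.09 (adjusted p = 9.16e-07) left it 2.25-fold lower, the only member past 2-fold there. ATP5MG, the g subunit of the same membrane part, rose from 11.52, 11.55 and 11.65 to 12.31, 12.15 and 12.21 (change 0.65 ± 0.08, adjusted p = 6.28e-05), and its second probe rose by 0.61. ATP5F1D, the delta subunit of the F1 head, fell by 0.39 ± 0.10. The groups of these 3 genes did not overlap. Lack of overlap was no rarer among all genes of this line, with 6752 of 14077 tested genes beside 26 of the 76 subunit genes.

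In complex I of Cal-27, NDUFS7 rose by 0.36 ± 0.09 and was the only subunit gene that rose in both tongue lines. NDUFB10 fell by 0.30 ± 0.08 and NDUFS3 by 0.27 ± 0.08, and both of these rose in SCC-25. NDUFA10 fell by 0.28 ± 0.10 (adjusted p = 0.0423), a call that was lost without any of 7 single arrays. NDUFB1 fell by 0.47 ± 0.15, with groups that overlapped at 6.16, 6.01 and 5.63 against 5.64, 5.55 and 5.21. UQCRC1, a core protein of complex III, fell from 9.51, 9.47 and 9.46 to 9.16, 9.07 and 9.12 (change -0.36 ± 0.09, adjusted p = 0.00549).

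In resistant FaDu cells, 31 of the 76 genes fell, 2 rose and 43 were not called, while 19.8% of all tested genes fell and 20.2% rose. The median change was -0.18, against -0.02 for all genes. Complex III was lowest, with 6 of 8 genes lower and a median of -0.35, and complex V followed with 10 of 17 lower and a median of -0.28. In complex I, 12 genes fell and 2 rose, with a median of -0.14. Complex IV had 3 of 12 lower, with a median of -0.12, and complex II had 0 of 3 called, with a median of -0.09, though a second SDHA probe fell by 0.62 ± 0.12 (adjusted p = 0.00158). When 1 of sensitive replicates 2 and 3 or resistant replicates 1, 2 and 3 was left out, 1 gene rose in place of 2.

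UQCRB had the largest change of any subunit in FaDu, from 8.53, 8.86 and 8.73 to 7.42, 7.28 and 7.19. The change was -1.41 ± 0.10 (adjusted p = 3.86e-07), or 2.65-fold lower, and the groups were far apart. Its other probes fell by 0.42 and 0.27. Separated groups were frequent in FaDu, with 7015 of all 14077 tested genes and 44 of the 76 subunit genes. The matching counts for SQ20B were 8556 and 61. UQCRC1 and UQCRC2, the pair of core proteins, fell by 0.38 ± 0.09 and 0.45 ± 0.10. UQCR10, a subunit with 3 probes, fell by 0.50 ± 0.12 on the brightest and was not called as their mean (-0.16). UQCRH, the hinge protein that binds cytochrome c1, changed by -0.26 ± 0.09 and its near-identical copy UQCRHL by -0.32 ± 0.09, and probes of these copies may share RNA. UQCRQ (-0.02 ± 0.09) and UQCR11 (-0.05 ± 0.19) were not called.

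In complex V of FaDu, 4 of the 5 F1 head genes fell. The beta subunit ATP5F1B, which holds the catalytic sites, read 13.73, 13.89 and 13.75 against 13.49, 13.41 and 13.55, a change of -0.31 ± 0.09 (adjusted p = 0.0158). The gamma subunit ATP5F1C changed by -0.35 ± 0.09, the delta subunit ATP5F1D by -0.57 ± 0.10 and the epsilon subunit ATP5F1E by -0.38 ± 0.13. ATP5F1A, the alpha subunit, changed by -0.16 ± 0.08 and was not called. ATP5MC3 is 1 of 3 genes that encode the same mature c subunit of the proton-driven ring, and it fell from 7.77, 7.80 and 8.06 to 6.95, 7.02 and 6.79 (change -0.96 ± 0.12, adjusted p = 4.12e-05). Its sister genes ATP5MC1 (-0.24 ± 0.10) and ATP5MC2 (0.07 ± 0.09) were not called, though a second ATP5MC1 probe fell by 0.44 (adjusted p = 0.0389). ATP5MK fell by 0.63 ± 0.10, from 7.07, 7.16 and 7.25 to 6.66, 6.47 and 6.46.

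No core subunit of complex I was called in FaDu, where the 6 had a median of -0.08, against 12 of 30 accessory subunits lower and 2 higher. NDUFB9 fell from 11.50, 11.75 and 11.64 to 11.15, 11.15 and 11.12 (change -0.49 ± 0.09, adjusted p = 0.000855). NDUFS5 fell by 0.48 ± 0.09 and NDUFV3 by 0.58 ± 0.15. A second NDUFV3 probe changed by 0.22 and was not called, and neither was the mean of both (-0.18, adjusted p = 0.16). NDUFAB1, the mitochondrial acyl carrier protein, fell by 0.34 ± 0.08. NDUFS6 was called lower, but it was detected on 2 sensitive and 0 resistant arrays, so the size of its fall cannot be read.

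NDUFC2 rose in FaDu against this direction. It read 5.32, 4.66 and 4.78 in sensitive and 5.61, 6.01 and 5.80 in resistant arrays, a change of 0.89 ± 0.18 (adjusted p = 0.00183). The probe was detected on 1 of 3 sensitive and 3 of 3 resistant FaDu arrays, so the sensitive level lay close to background. NDUFB5 rose by 0.24 ± 0.08, and with median scaling in place of quantile normalization it changed by -0.05. In complex IV of FaDu, COX6B1 fell from 8.76, 8.88 and 9.11 to 8.52, 8.33 and 8.46 (change -0.48 ± 0.10, adjusted p = 0.00263). COX5A and COX7B fell by 0.32 ± 0.10 and 0.29 ± 0.10.

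Resistant SQ20B cells had the most calls, with 43 subunit genes lower, 7 higher and 26 not called, beside 25.4% of all tested genes lower and 28.1% higher. The median change was -0.30, against 0.00 for all genes. Complex III again had the lowest median, -0.67, with 7 of 8 genes lower and 1 higher. Complex V had 14 of 17 lower and 1 higher, with a median of -0.51. Complex II had 2 of 3 lower (median -0.30), complex I 16 of 36 lower and 3 higher (median -0.18), and complex IV 4 of 12 lower and 2 higher (median -0.08). The fitted changes of 4 genes passed 2-fold, those of ATP5MC1, UQCRB and UQCR10, which fell, and COX6B2, which rose.

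ATP5MC1, whose promoter is shown above and which encodes the c subunit, had the largest fall of any subunit gene in any line, with that of UQCRB in FaDu close to it. It read 10.92, 10.91 and 11.05 in sensitive SQ20B and 9.55, 9.49 and 9.59 in resistant SQ20B arrays, 2.67-fold lower (change -1.42 ± 0.10, adjusted p = 8.61e-08). A second ATP5MC1 probe fell by 1.00. ATP5MC3 fell by 0.85 ± 0.12, and ATP5MC2 changed by -0.11 ± 0.09 and was not called. All 5 F1 head genes fell, by 0.68 for alpha, 0.49 for beta, 0.57 for gamma, 0.31 for delta and 0.53 for epsilon. The stalk genes ATP5PF, ATP5PO and ATP5PB fell by 0.59, 0.53 and 0.30, and ATP5PD changed by 0.12 ± 0.08. ATP5MK rose, from 7.97, 7.74 and 8.0 to 8.19, 8.35 and 8.32 (change 0.38 ± 0.10, adjusted p = 0.00589). With median scaling ATP5MK changed by 0.23 and was not called (adjusted p = 0.0758).

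In complex III of SQ20B, UQCRB fell from 7.62, 7.43 and 7.47 to 6.16, 6.12 and 6.12 (change -1.37 ± 0.10, adjusted p = 1.74e-07). Of its other probes, 1 fell by 0.46 and 1 changed by -0.03 and was not called. UQCRC2 fell by 0.83 ± 0.10, UQCRH by 0.79 ± 0.09 and UQCRC1 by 0.43 ± 0.09. UQCR10 depended on the probe. Its brightest probe fell from 9.32, 9.57 and 9.58 to 8.26, 8.27 and 8.40 (adjusted p = 2.07e-06), while 2 probes annotated to another RefSeq transcript rose by 0.57 and 0.44, and the mean of the 3 probes changed by -0.06, which was not called. ATP5MG showed the same kind of disagreement, with its brighter probe lower by 0.51 and the other higher by 0.61. UQCRQ rose by 0.31 ± 0.09, but changed by -0.22 with median scaling and by -0.08 with upper quartile scaling.

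In complex II of SQ20B, SDHA fell from 10.45, 10.46 and 10.44 to 9.66, 9.58 and 9.49 (change -0.87 ± 0.09, adjusted p = 3.58e-06), and its second probe fell by 0.98. SDHC fell by 0.30 ± 0.10, and SDHD changed by -0.17 ± 0.10 and was not called. SDHB was not analysed here.

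In complex I of SQ20B, 14 of 30 accessory and 2 of 6 core subunits fell. NDUFB9 fell from 10.69, 10.66 and 10.87 to 10.05, 10.00 and 10.08 (change -0.70 ± 0.09, adjusted p = 2.5e-05). NDUFB1 fell by 0.67 ± 0.15, NDUFAB1 by 0.59 ± 0.08 and NDUFA9, which lies near the quinone site, by 0.56 ± 0.10. The core subunits that fell were NDUFV2 (-0.35 ± 0.09) and NDUFS3 (-0.21 ± 0.08). NDUFC2 rose here too, from 4.89, 5.12 and 5.37 to 6.16, 5.84 and 6.22 (change 0.95 ± 0.18, adjusted p = 0.000675). It was detected on 2 of 3 sensitive and 3 of 3 resistant SQ20B arrays. NDUFB5 (0.40 ± 0.08) and NDUFA6 (0.25 ± 0.09) rose as well, and with median scaling NDUFB5 changed by -0.06 and NDUFA6 by 0.09.

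In complex IV of SQ20B, COX6B1 fell by 0.71 ± 0.10, from 9.69, 9.75 and 9.77 to 8.98, 8.96 and 9.15. COX7B, COX8A and COX7A2 fell by 0.45, 0.44 and 0.26. COX6B2, the testis isoform of COX6B1, was at 4.23, 4.65 and 4.27 on the sensitive arrays, none well above background, and at 6.41, 6.06 and 6.28 on the resistant arrays, all 3 above it. It was at least 2.53-fold higher in resistant SQ20B (adjusted p = 6.56e-08), while a second COX6B2 probe changed by 0.14 ± 0.18 and was not called. The first probe was detected on 1 other array of the 24 and passed the detection filter through the group where it was high, so its p is tied to the filter. COX7A2L rose by 0.33 ± 0.08, but changed by -0.04 with median scaling. COX4I1 (-0.02 ± 0.08), COX5A (0.00 ± 0.10) and COX5B (0.17 ± 0.07) were not called.

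**Figure D2:**
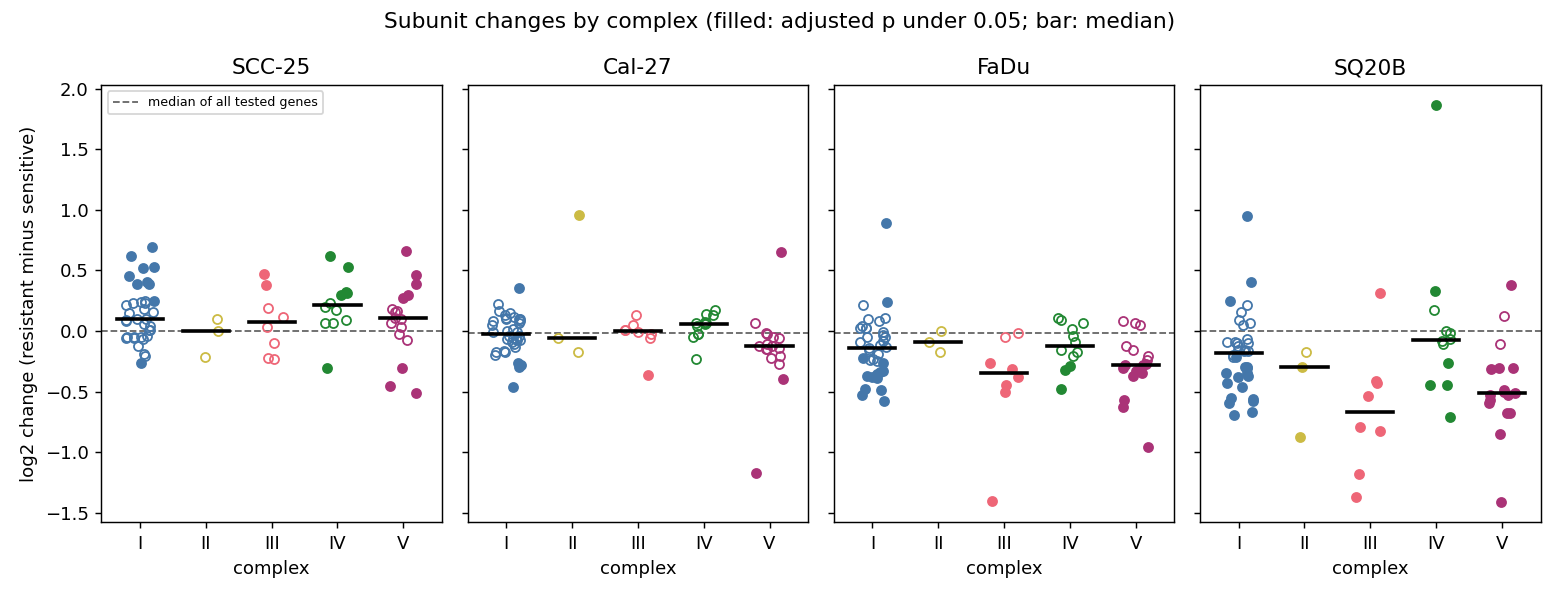
Log2 change (resistant minus sensitive) of each subunit gene by complex, 1 panel per line. Filled points have adjusted p under 0.05, bars are the medians of a complex and the dashed line is the median of all 14077 tested genes. Complexes III and V lie lowest in FaDu (medians -0.35 and -0.28) and in SQ20B (-0.67 and -0.51).

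In SCC-25, some of the calls named here were lost when a single array was left out, each array in turn. A call lost without any of several arrays lay near the threshold and did not rest on 1 of them. ATP5MC2 lost its call without sensitive replicates 2 and 3, resistant replicates 1, 2 and 3, Cal-27 sensitive replicate 3 or Cal-27 resistant replicates 1 and 3, with a change of 0.20 to 0.32 and an adjusted p of 0.05 to 0.134. ATP5MK lost its call without resistant replicate 2, with a change of -0.49 and an adjusted p of 0.0533. ATP5PB lost its call without resistant replicate 3, with a change of -0.27 and an adjusted p of 0.0513. COX7A2L lost its call without sensitive replicate 3 or resistant replicate 2, with a change of -0.27 to -0.24 and an adjusted p of 0.0632 to 0.0671. NDUFA6 lost its call without sensitive replicates 2 and 3 or resistant replicates 1, 2 and 3, with a change of -0.28 to -0.24 and an adjusted p of 0.0517 to 0.0738. NDUFS1 lost its call without sensitive replicate 2 or resistant replicates 1 and 3, with a change of 0.32 to 0.53 and an adjusted p of 0.0786 to 0.139. With no background correction ATP5MK changed by -0.15 and NDUFS1 by 0.15, and neither was called (adjusted p of 0.0867 and 0.0692).

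In Cal-27, some of the calls named here were lost when a single array was left out. NDUFA10 lost its call without SCC-25 resistant replicate 2, sensitive replicates 1, 2 and 3 or resistant replicates 1, 2 and 3, with a change of -0.32 to -0.23 and an adjusted p of 0.0503 to 0.151. NDUFB1 lost its call without sensitive replicates 1 and 2 or resistant replicates 2 and 3, with a change of -0.51 to -0.34 and an adjusted p of 0.0552 to 0.155. NDUFB10 lost its call without sensitive replicate 2 or resistant replicate 1, with a change of -0.27 in both and an adjusted p of 0.0558 to 0.0567. With no background correction NDUFB1 changed by -0.15 and was not called (adjusted p = 0.0686).

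In FaDu, some of the calls named here were lost when a single array was left out. ATP5F1E lost its call without sensitive replicates 1 and 3 or resistant replicates 1 and 2, with a change of -0.35 to -0.27 and an adjusted p of 0.0829 to 0.138. ATP5MG lost its call without sensitive replicate 3 or resistant replicate 1, with a change of -0.23 to -0.21 and an adjusted p of 0.0854 to 0.0879. ATP5PB lost its call without sensitive replicate 3, resistant replicates 2 and 3 or SQ20B resistant replicate 2, with a change of -0.30 to -0.19 and an adjusted p of 0.0502 to 0.161. COX5A lost its call without sensitive replicates 1 and 3 or resistant replicates 2 and 3, with a change of -0.33 to -0.27 and an adjusted p of 0.0516 to 0.0909. COX7B lost its call without sensitive replicates 1 and 3 or resistant replicates 2 and 3, with a change of -0.31 to -0.24 and an adjusted p of 0.0506 to 0.111. NDUFA10 lost its call without sensitive replicate 3 or resistant replicate 3, with a change of -0.32 to -0.23 and an adjusted p of 0.0744 to 0.0974. NDUFB5 lost its call without sensitive replicates 2 and 3 or resistant replicates 1, 2 and 3, with a change of 0.21 to 0.25 and an adjusted p of 0.0562 to 0.101. NDUFS4 lost its call without sensitive replicates 1 and 2 or resistant replicates 2 and 3, with a change of -0.27 to -0.22 and an adjusted p of 0.0536 to 0.0977. UQCRH lost its call without sensitive replicates 2 and 3, resistant replicates 1, 2 and 3, SQ20B sensitive replicates 1, 2 and 3 or SQ20B resistant replicate 1, with a change of -0.28 to -0.18 and an adjusted p of 0.0507 to 0.17. UQCRHL lost its call without sensitive replicate 1, with a change of -0.28 and an adjusted p of 0.0577. The mean of the ATP5MG probes changed by -0.07 and was not called (adjusted p = 0.519).

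In SQ20B, some of the calls named here were lost when a single array was left out. ATP5F1D lost its call without sensitive replicates 1 and 2 or resistant replicates 2 and 3, with a change of -0.31 to -0.23 and an adjusted p of 0.0531 to 0.105. ATP5PB lost its call without sensitive replicate 2, with a change of -0.28 and an adjusted p of 0.0585. NDUFA6 lost its call without sensitive replicates 1 and 3 or resistant replicates 1, 2 and 3, with a change of 0.19 to 0.27 and an adjusted p of 0.0625 to 0.144. SDHC lost its call without sensitive replicate 1 or resistant replicate 3, with a change of -0.26 to -0.21 and an adjusted p of 0.0879 to 0.116. UQCR11 lost its call without sensitive replicates 1 and 2 or resistant replicate 1, with a change of -0.57 to -0.42 and an adjusted p of 0.0523 to 0.129. With upper quartile scaling UQCR11 changed by -0.45 and was not called (adjusted p = 0.0961).

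The size of these falls depended on the scaling. Quantile normalization sets all arrays of a table to 1 distribution, with a median of all genes of -0.02 in FaDu and 0.00 in SQ20B. With median scaling these medians were -0.09 and -0.21, and the share of called genes that were higher went from 50.5% to 37.1% in FaDu and from 52.5% to 35.5% in SQ20B. The subunit genes then numbered 55 lower and 1 higher in FaDu, and 66 lower and 2 higher in SQ20B. Relative to the median of all genes, the subunit median was -0.17 in FaDu and -0.30 in SQ20B with quantile normalization, and -0.33 and -0.38 with median scaling. In SCC-25 the same quantity was 0.10 and 0.09, and in Cal-27 -0.01 and -0.03.

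Per array, the median level of the 17 complex V genes, each centred on its mean over the 12 arrays of a table, was 0.06, 0.11 and 0.15 in sensitive and -0.10, -0.14 and -0.11 in resistant FaDu. In SQ20B it was 0.25, 0.27 and 0.28 against -0.22, -0.16 and -0.20. The 8 complex III genes gave 0.40, 0.37 and 0.31 against 0.07, 0.08 and -0.05 in FaDu, and 0.19, 0.01 and 0.07 against -0.51, -0.48 and -0.33 in SQ20B. Sensitive and resistant arrays did not overlap in any of these 4 sets. This was not particular to them. Arrays also did not overlap for complex I in any line, complex IV in FaDu and complex II in SQ20B. The same held for complexes III, IV and V in SCC-25, and for II, IV and V in Cal-27, where few genes were called. The 3 complex II genes did overlap in FaDu, at 0.26, -0.04 and 0.10 against 0.06, -0.09 and -0.01.

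**Figure D3:**
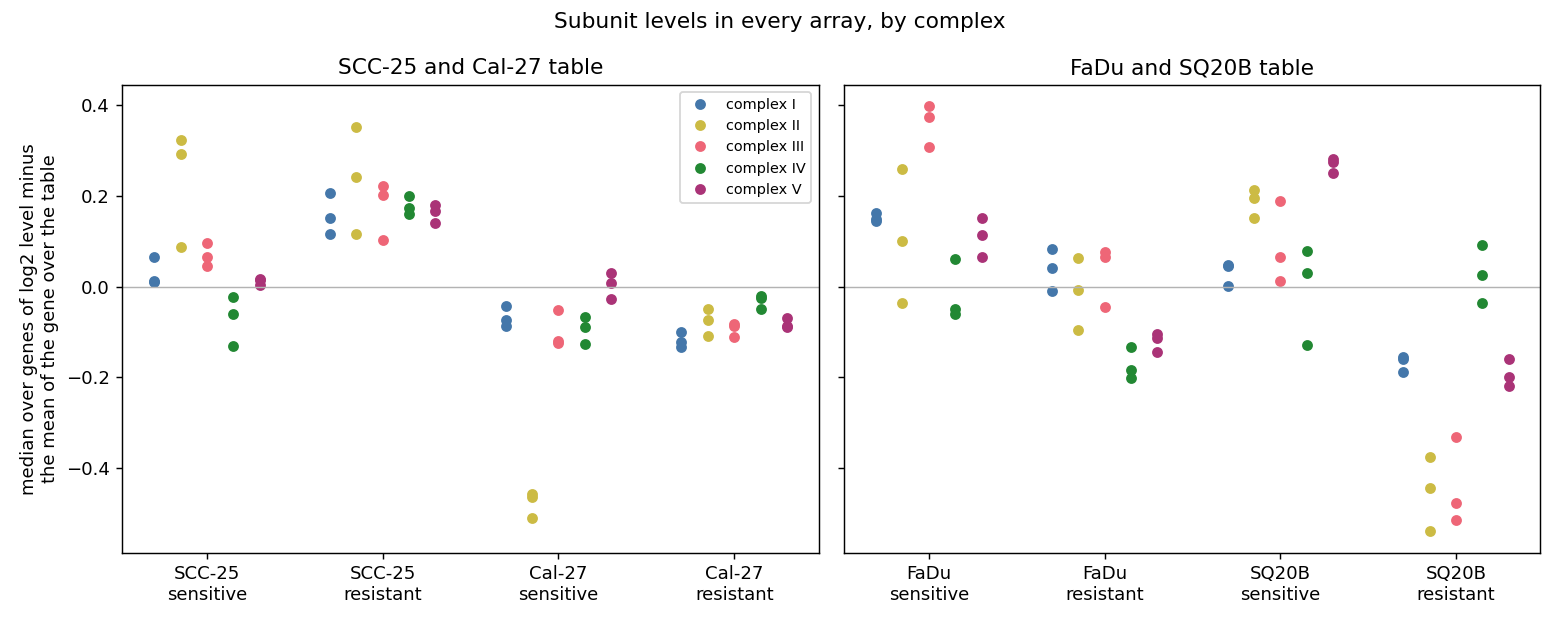
Median over the genes of a complex of the log2 level minus the gene's own mean over the table, for each array, with sensitive and resistant groups on the x axis and 1 panel per table. Resistant FaDu and SQ20B arrays lie below the sensitive ones for complexes I, III and V. In the panel of SCC-25 and Cal-27 the sensitive Cal-27 arrays lie lowest for complex II, at -0.51 to -0.46.

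Across lines, 25 of the 76 genes, or 32.9%, fell in both FaDu and SQ20B, beside 12.7% of all tested genes. They comprise 9 genes of complex V, 8 of complex I, 6 of complex III and 2 of complex IV. The shares that rose in both were 2.63% of subunit genes, NDUFB5 and NDUFC2, and 13.5% of all. Both lines were normalized in 1 table, and no control arrays are shared between them. The changes of the 76 genes correlated at 0.57 (Pearson) and 0.56 (Spearman) between FaDu and SQ20B across genes, which are not independent replicates, and over all tested genes the Pearson value was 0.53. In the other 5 pairs of lines it was 0.07 to 0.19 over the 76 genes.

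No subunit gene was called in all 4 lines, and 9 were called in none, or 11.8% beside 23.9% of all tested genes. These were COX6A1, COX6C, NDUFA1, NDUFA5, NDUFA11, NDUFA12, NDUFB2, NDUFB4 and NDUFV1. ATP5F1D, ATP5PB and UQCRC1 fell in 3 lines. ATP5F1E, ATP5ME, ATP5PF, COX6B1 and UQCRB rose in SCC-25 and fell in both FaDu and SQ20B, and 12 genes in all rose in 1 line and fell in another. The shares of all tested genes with these patterns over 3 or 4 lines were not counted. By pairs, 6.58% of subunit genes rose in SCC-25 and fell in FaDu, beside 2.19% of all genes. For SQ20B this was 10.5% beside 3.44%. The opposite pattern, a fall in SCC-25 with a rise, was 0% beside 2.78% for FaDu and 3.95% beside 4.9% for SQ20B.

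**Figure D4:**
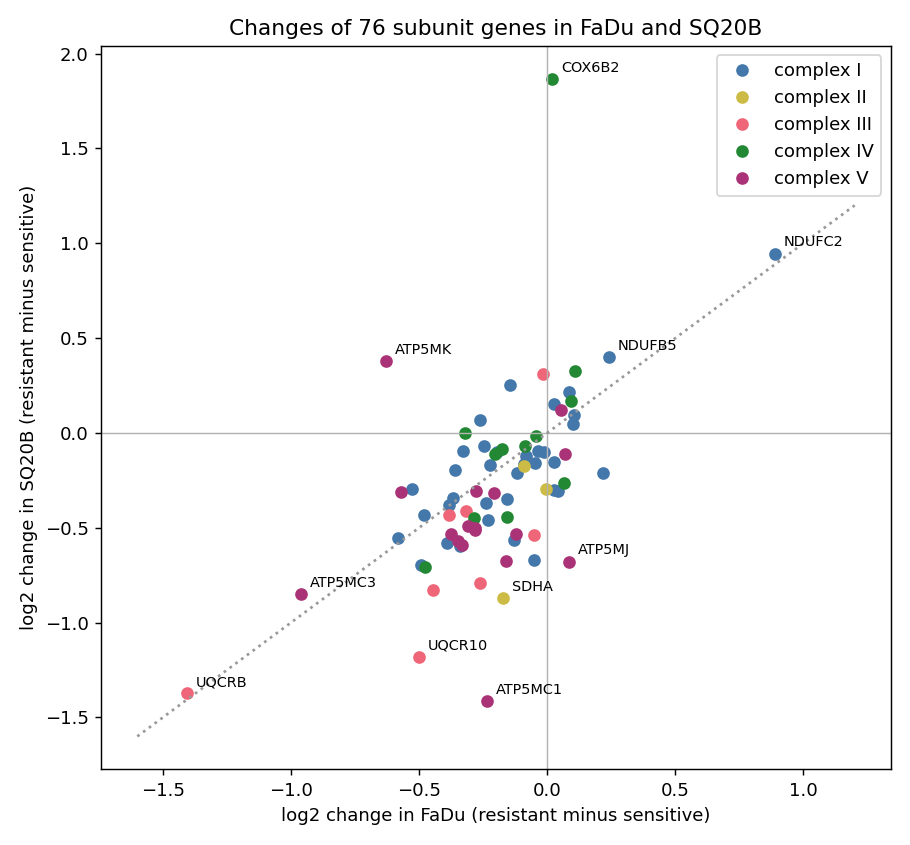
Log2 change (resistant minus sensitive) of the 76 subunit genes in FaDu on the x axis and SQ20B on the y axis, coloured by complex, with a dotted line where both are equal. UQCRB lies at the far low end in both, at -1.41 and -1.37, and ATP5MK and COX6B2 lie away from the line.

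**Figure D5:**
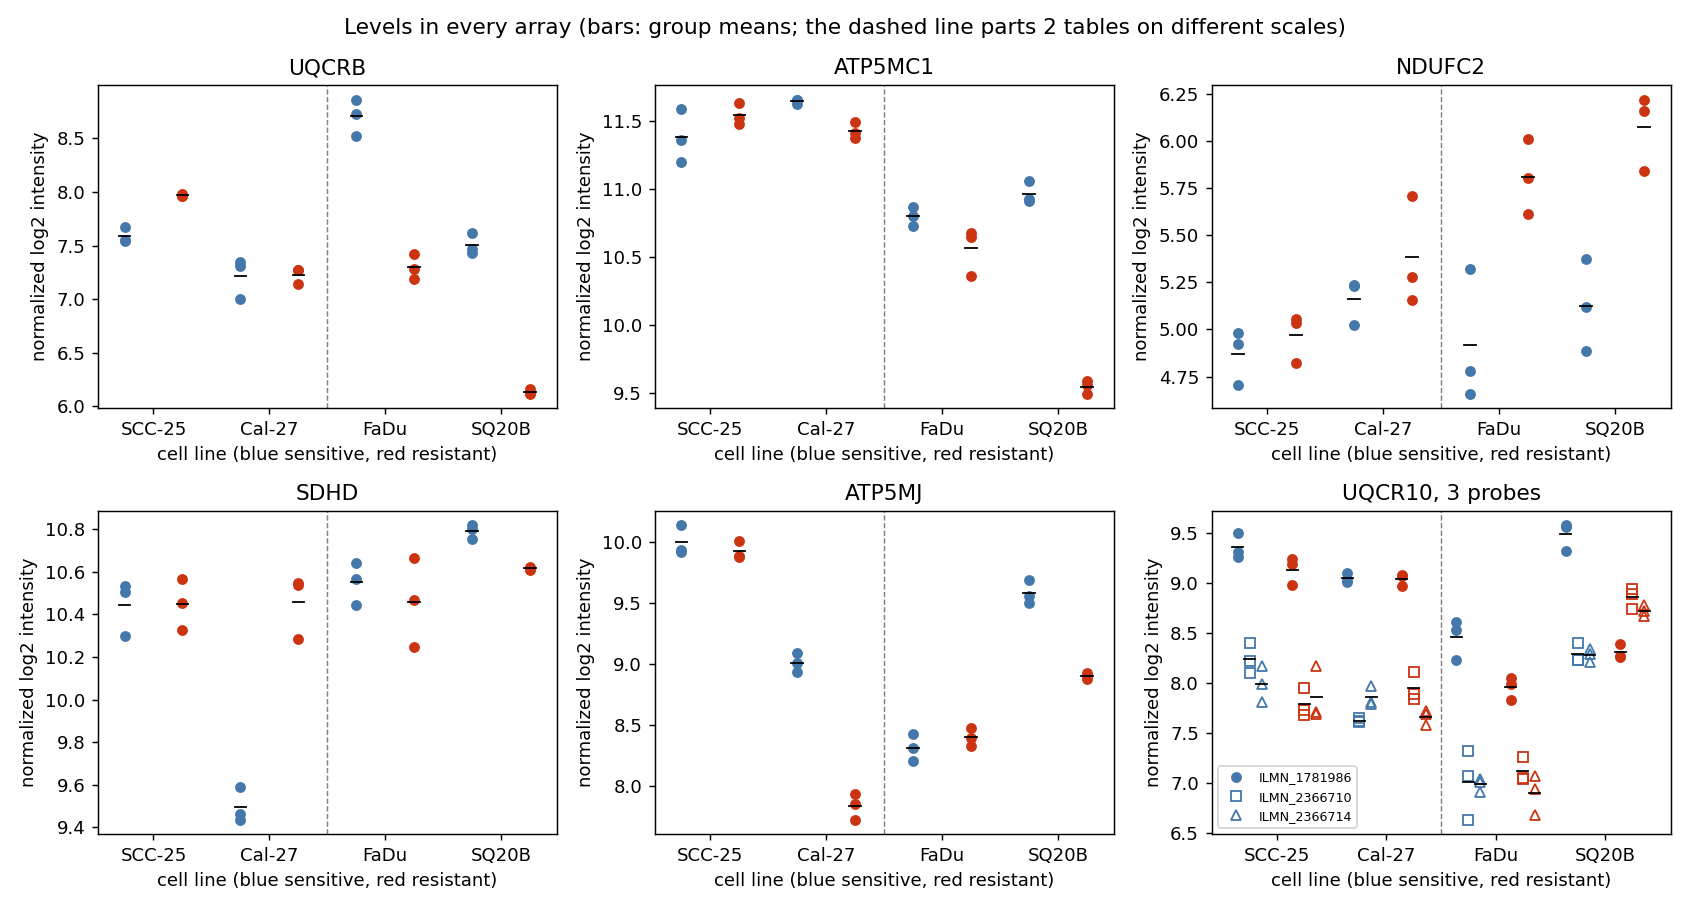
Normalized log2 intensity on every array for UQCRB, ATP5MC1, NDUFC2, SDHD, ATP5MJ and the 3 probes of UQCR10, with sensitive arrays in blue, resistant arrays in red and bars at the group means. The dashed line parts tables on different scales. The brightest UQCR10 probe falls in SQ20B while the other 2 rise.

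The change differed between SCC-25 and Cal-27 for 22 subunit genes when tested as an interaction in limma, 18 with a higher change in SCC-25 and 4 with a lower one, while 16.6% and 16% of all genes did so. ATP5MJ differed most, by 1.10 ± 0.13 (adjusted p = 4.53e-05), since it changed by -0.07 in SCC-25 and -1.17 in Cal-27. SDHD differed by -0.96 ± 0.15 (adjusted p = 0.000353), COX6B1 by 0.85 ± 0.15, ATP5F1E by 0.81 ± 0.18 and NDUFB10 by 0.70 ± 0.11. The differences of COX6B1, ATP5F1E and NDUFB10 joined a rise in SCC-25 to a Cal-27 change of -0.23, -0.15 and -0.30. Of the 36 complex I genes, 9 had a higher change in SCC-25 and 0 a lower one.

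Between FaDu and SQ20B the change differed for 14 subunit genes, 11 with a higher (less negative) change in FaDu and 3 with a lower one, beside 16.1% and 16.2% of all genes. Without FaDu resistant replicate 3, SQ20B sensitive replicate 1 or SQ20B resistant replicate 2, 9 genes differed, and 24 did with no background correction and 22 with median scaling. ATP5MC1 differed by 1.18 ± 0.14 (adjusted p = 3.5e-05), ATP5MJ by 0.76 ± 0.12 and SDHA by 0.70 ± 0.13 (adjusted p = 0.00118). On these probes the 3 fell in SQ20B and were not called in FaDu. For 2 of them the difference rested on the probe read: the second ATP5MC1 probe fell in both lines and differed by 0.56 (adjusted p = 0.071), and the second SDHA probe fell in both and differed by 0.35 (adjusted p = 0.154), neither called. ATP5MK, which fell in FaDu and rose in SQ20B, differed by -1.01 ± 0.14 (adjusted p = 0.000144), and COX6B2 by -1.85 ± 0.18 on a probe not well above background in 3 of the 4 groups. UQCRB, which fell in both lines, had an interaction of -0.03 ± 0.14, which was not called (adjusted p = 0.891).

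Parental lines of a table also differed. Between sensitive SCC-25 and sensitive Cal-27, 39 of 76 genes differed, 26 higher and 13 lower in SCC-25, beside 27.5% and 27.5% of all genes, and line and culture medium cannot be told apart here. ATP5MK was lower in SCC-25, at 5.66, 5.02 and 5.14 against 7.50, 7.66 and 7.33 (difference -2.23 ± 0.14, adjusted p = 3.23e-08). ATP5MG, ATP5MJ, SDHD, NDUFC1 and SDHC were higher in SCC-25, by 1.07, 0.99, 0.95, 0.94 and 0.93. SDHD in resistant Cal-27, at 10.55, 10.54 and 10.29, overlapped the range of sensitive SCC-25, at 10.54, 10.50 and 10.30.

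Between sensitive FaDu and sensitive SQ20B, grown in the same medium per the labels, 51 genes differed, 30 higher and 21 lower in FaDu, beside 28.9% and 26% of all genes. NDUFV1 was higher in FaDu, at 11.43, 11.64 and 11.40 against 10.34, 10.10 and 10.08 (difference 1.31 ± 0.11, adjusted p = 4.84e-07), as were NDUFA6 (1.27), UQCRB (1.20) and ATP5PO (1.01). ATP5MJ, NDUFS4, COX8A and UQCR10 were lower in FaDu, by differences of -1.27, -1.21, -1.16 and -1.03. All 4 called core subunits of complex I were higher in FaDu. For UQCRB, resistant FaDu at 7.42, 7.28 and 7.19 lay below sensitive SQ20B at 7.62, 7.43 and 7.47 on all arrays.

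Other lists of genes of mitochondrial respiration were counted in the same way, beside the shares of all tested genes given above, which were 19.8% lower and 20.2% higher in FaDu and 25.4% lower and 28.1% higher in SQ20B. Of 76 measured mitochondrial ribosomal protein genes, which serve translation of the mitochondrially encoded subunits, 44 (57.9%) fell and 1 rose in FaDu, and 57 (75%) fell and 1 rose in SQ20B, with medians of -0.32 and -0.57. MRPL30 fell by 1.14 ± 0.14 and MRPL19 by 0.97 ± 0.08 in FaDu, and MRPL12 by 1.60 ± 0.11 in SQ20B. In Cal-27, 20 (26.3%) fell and 2 rose, beside 16.8% and 16% of all genes, and in SCC-25, 7 fell and 7 rose, or 9.21% each, under the 15% and 14.7% of all genes. Of 14 genes of mitochondrial DNA maintenance and expression, 7 (50%) fell in FaDu and 9 (64.3%) in SQ20B, where TFAM, which packages mitochondrial DNA, fell by 0.96 ± 0.10 (adjusted p = 4.66e-06) and LONP1, a matrix protease, rose by 1.00 ± 0.08.

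Of 17 genes of the tricarboxylic acid cycle, which feeds complexes I and II, 8 (47.1%) fell and 2 rose in FaDu, and 13 (76.5%) fell and 1 rose in SQ20B. IDH3A, of isocitrate dehydrogenase, fell by 1.10 ± 0.10 in FaDu and 1.12 ± 0.10 in SQ20B, while SUCLG2, of succinyl-CoA ligase, rose in all 4 lines, by 0.49 in FaDu, 0.36 in SQ20B, 0.59 in Cal-27 and 0.97 in SCC-25. In SCC-25, 3 of the 17 (17.6%) rose and 2 (11.8%) fell, and in Cal-27, 3 (17.6%) rose and 4 (23.5%) fell, shares near those of all genes. Of 17 electron carriers and enzymes of ubiquinone synthesis, 6 (35.3%) fell and 2 rose in FaDu, and 11 (64.7%) fell and 3 rose in SQ20B. PDSS1, which starts the ubiquinone side chain, fell by 2.40 ± 0.08 in SQ20B (adjusted p = 1.03e-10) and by 0.94 ± 0.08 in FaDu, while CYCS, cytochrome c, rose by 0.45 ± 0.12 in SQ20B and fell by 0.74 ± 0.12 in Cal-27.

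Of 16 assembly factors of complex I, 10 (62.5%) fell and 1 rose in FaDu, and 10 (62.5%) fell and 3 rose in SQ20B, with medians of -0.39 and -0.44. NDUFAF6 fell by 0.68 ± 0.09 and 1.06 ± 0.09, and TMEM126B rose by 0.23 and 0.37. Of 23 assembly factors of complex IV, 5 (21.7%) fell and 6 (26.1%) rose in FaDu, near the shares of all genes, and 10 (43.5%) fell and 6 (26.1%) rose in SQ20B, COA7 with a fall of 1.03 and COA5 with a rise of 1.04 there. Of 6 factors of complex III, 1 rose and 1 fell (16.7% each) in FaDu, and 3 (50%) rose and 2 (33.3%) fell in SQ20B. In Cal-27, 4 of these 6 (66.7%) fell, beside 16.8% of all genes. Of 4 factors of complex II, 1 (25%) fell in FaDu and 1 (25%) in SQ20B. The 4 genes of complex V assembly and inhibition had 1 (25%) lower in FaDu, and 1 lower and 1 higher (25% each) in SQ20B. Of 9 regulators of mitochondrial biogenesis, 2 (22.2%) rose and 0 fell in SCC-25, with a median of -0.04, beside 14.7% and 15% of all genes. In Cal-27, 0 rose and 3 (33.3%) fell, beside 16% and 16.8%. In FaDu, 1 (11.1%) rose and 3 (33.3%) fell, and in SQ20B, 0 rose and 4 (44.4%) fell. PPARGC1A, a coactivator of respiration genes, rose in SCC-25 by 0.93 ± 0.09 (adjusted p = 8.81e-06), and GABPA by 0.50 ± 0.11. PPRC1, a related coactivator, fell by 1.00 in SQ20B, 0.59 in FaDu and 0.63 in Cal-27, and GABPB1 by 1.06, 0.27 and 0.55. NRF1 was not called in any line, and YY1 fell in Cal-27 by 0.95 ± 0.11.

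Lineage markers also moved in the resistant cultures. SFN fell in all 4 lines, by 1.83 in FaDu, 1.34 in SQ20B, 1.73 in Cal-27 and 1.06 in SCC-25, and KRT14 fell by 6.24 in Cal-27. The summed linear level of the 5 measured squamous markers was 25766.4 to 28278 in sensitive and 18215.8 to 21204.7 in resistant SCC-25 arrays, and 23512.8 to 26143 against 13462.5 to 14596.2 in Cal-27. It was 13055.8 to 14052.9 against 10584.5 to 11255.9 in FaDu, and 14488.7 to 15790.1 against 12243.1 to 12662 in SQ20B. DCN rose in SCC-25 by 4.15 ± 0.10 and CDH5 in Cal-27 by 3.56 ± 0.10 and in FaDu by 2.55 ± 0.14, and the 4 fibroblast markers summed to 298.3 to 389.1 against 2562 to 2958.7 in SCC-25. The 4 endothelial markers summed to 149.2 to 180.5 against 1070.4 to 1098.2 in Cal-27 and to 170.6 to 193.9 against 411.3 to 441.9 in FaDu. The 3 leukocyte markers summed to 288.6 to 329.1 against 500.7 to 641.2 in SCC-25 and to 557.8 to 695.3 against 393.5 to 410 in FaDu. In Cal-27 the leukocyte markers summed to 452.4 to 514.8 against 592.1 to 623.8, and the 3 melanocyte markers summed to 81.5 to 97.9 against 99.5 to 127.9 in FaDu and to 64.4 to 74.5 against 78.2 to 82.2 in SQ20B. CD14 rose in SCC-25 and Cal-27, by 0.97 and 0.33, and fell by 0.72 in FaDu, and PMEL rose by 0.59 in FaDu and 0.55 in SQ20B. By call, 1 of the 4 fibroblast markers rose and 1 fell in SCC-25 (25% each, beside 14.7% and 15% of all genes). In Cal-27, 1 of them (25%) rose and 2 (50%) fell, beside 16% and 16.8%. In FaDu, 1 of 3 tested endothelial markers rose and 1 fell (33.3% each). Of the 5 squamous markers there, 1 (20%) rose and 3 (60%) fell, beside 20.2% and 19.8% of all genes. COL1A1, COL1A2 and DCN were detected on all 6 SCC-25 arrays, PDGFRB on 0 of them and KDR on 0 arrays of any line. The part of these shifts in the subunit changes was not tested.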

How the data were processed

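Messenger RNA of 24 samples was measured on Illumina beadchips. The authors deposited 2 tables of 12 arrays each with the mean bead intensity of a probe, not normalized, a detection p-value against negative control beads, and bead counts, made with GenomeStudio per the submitters' processing notes (version not given). The deposited standard errors of the bead signal were not used. A further deposited table held the authors' processed intensity values and served as an alternative. The platform annotation gave a single gene symbol to 30113 of 47231 probes and more than 1 to 8, and 17110 are unnamed here.

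Within each table, intensities were background corrected and quantile normalized with neqc (offset 16; limma 3.58.1, R 4.3.3) and taken to log2. Probes with 1 symbol and a detection p under 0.05 on at least 3 arrays were kept (19171 probes, 14077 genes). limma's linear model with empirical Bayes was fitted over the 4 groups of a table with 8 residual degrees of freedom, p-values were adjusted over all probes (Benjamini-Hochberg), and the steps were tested on simulated data. Bounds compare the brighter mean with the lowest detected signal, and are given only where the probe was detected on all arrays of the brighter group.

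Subunit genes, other lists and named genes were chosen with earlier results of these data known. Named genes were the highest and lowest calls per line whose arrays did not overlap, the largest change per complex, the largest differences between lines, complex II, isoforms and genes whose probes disagreed; further members were named after their values were seen. Alternatives were other scalings, background corrections, filters, probe rules, a replicate block, array weights and leaving out each array. SDHB, UQCRFS1 and NDUFA4 were not analysed here.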

Additional observations from a re-analysis of the deposited data

Results flagged for a closer look

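Listed below are the subunit genes whose change from sensitive to resistant cells differed between the lines of a table. They had an adjusted p under 0.05 in limma's interaction test. For SCC-25 against Cal-27, 23.7% of subunit genes had a higher change and 5.26% a lower one, beside 16.6% and 16% of all tested genes. For FaDu against SQ20B these shares were 14.5% and 3.95%, beside 16.1% and 16.2%. Each value below is a difference of log2 changes, and no explanation was tested.

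The change in SCC-25 exceeded that in Cal-27 by 1.10 for ATP5MJ, 0.85 for COX6B1, 0.81 for ATP5F1E, 0.70 for NDUFB10, 0.68 for NDUFB1, 0.60 for NDUFA2, 0.59 for NDUFA3, 0.59 for ATP5ME and 0.58 for COX6B2. It also did so by 0.52 for NDUFS3, 0.52 for NDUFB11, 0.51 for NDUFA10, 0.50 for NDUFA13, 0.50 for UQCRQ, 0.46 for ATP5F1D, 0.44 for ATP5PD, 0.42 for ATP5MC2 and 0.36 for NDUFS8. The change was lower in SCC-25, with differences of -0.96 for SDHD, -0.47 for ATP5MG, -0.38 for COX7A2L and -0.35 for ATP5F1A. SDHD and ATP5MG rose in Cal-27, and COX7A2L and ATP5F1A fell in SCC-25. COX6B2 was detected on 1 of these 12 arrays, so its value compares levels that were not well above background. The second probes of ATP5F1D, ATP5MG and COX6B2 differed by -0.06, 0.04 and 0.27, and none was called. Genes not listed had called interactions on other probes, of 1.01 for ATP5MC1, -0.78 for UQCR10, 0.51 for NDUFB6 and 0.36 for SDHC. The adjusted p of limma's test were 0.000178, 0.00185, 0.0133 and 0.0335. Their brightest probes, at 0.38, -0.22, 0.26 and 0.15, were not called, and neither was a further UQCR10 probe, at 0.06.

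The change in FaDu exceeded that in SQ20B by 1.18 for ATP5MC1, 0.76 for ATP5MJ, 0.70 for SDHA, 0.68 for UQCR10, 0.62 for NDUFB1 and 0.53 for UQCRH. It also did so by 0.52 for ATP5F1A, 0.43 for NDUFA9, 0.41 for ATP5PO, 0.35 for NDUFA2 and 0.33 for COX7A2. The change was lower in FaDu for 3 genes, with differences of -1.85 for COX6B2, -1.01 for ATP5MK and -0.40 for NDUFA6. ATP5MK fell in FaDu and rose in SQ20B. The value of COX6B2 compares fitted levels that were well above background in resistant SQ20B alone of the 4 groups. That of UQCR10 comes from its brightest probe, with which its other probes disagreed in SQ20B. On those probes the interaction was negative, at -0.53, which was called (adjusted p = 0.0133), and -0.46, which was not (adjusted p = 0.116). The second ATP5MG probe also had a called interaction, of -0.47 (adjusted p = 0.0277), while its brightest probe, at 0.23, was not called. The second probes of ATP5MC1, SDHA and UQCRH differed by 0.56, 0.35 and 0.05, and none was called (adjusted p of 0.071, 0.154 and 0.882).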

How the results depend on the processing

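Of 77 named called changes under 11 other settings, 816 of 847 checks kept direction and side of the threshold, 25 lost the call and 6 reversed. With 1 array left out, 837 of 924 checks kept both, 87 lost the call and 0 reversed. Median scaling reversed NDUFB5 in FaDu (-0.054) and SQ20B (-0.057), COX7A2L in SQ20B (-0.037) and UQCRQ in SQ20B (-0.22), upper quartile scaling reversed UQCRQ in SQ20B (-0.077), and the mean of probes reversed ATP5MG in SQ20B (0.051). Median changes, by complex, moved as follows. Median scaling gave 0.13 (all subunits) in SCC-25, -0.068 (all subunits), -0.062 (I), 0.0093 (IV), -0.15 (V) in Cal-27, -0.42 (all subunits), -0.36 (I), -0.32 (II), -0.57 (III), -0.39 (IV), -0.55 (V) in FaDu and -0.59 (all subunits), -0.54 (I), -0.54 (II), -1.01 (III), -0.53 (IV), -0.89 (V) in SQ20B. Upper quartile scaling gave 0.15 (all subunits), 0.14 (I), 0.13 (III), 0.27 (IV), 0.14 (V) in SCC-25, -0.060 (all subunits), -0.055 (I), 0.017 (IV) in Cal-27, -0.34 (all subunits), -0.27 (I), -0.23 (II), -0.48 (III), -0.31 (IV), -0.47 (V) in FaDu and -0.44 (all subunits), -0.40 (I), -0.40 (II), -0.87 (III), -0.39 (IV), -0.75 (V) in SQ20B. No background correction gave -0.24 (all subunits), -0.15 (I), -0.56 (III), -0.48 (V) in SQ20B. Detection on all arrays of a group gave 0.15 (I) in SCC-25. No detection filter gave 0.095 (IV) in SCC-25. The mean of a gene's probes gave 0.13 (all subunits) in SCC-25, -0.34 (V) in FaDu and -0.49 (III) in SQ20B. Array weights gave 0.13 (all subunits), 0.15 (V) in SCC-25. Median scaling counted 1 higher and 55 lower in FaDu, 2 and 66 in SQ20B and 22 FaDu to SQ20B differences, upper quartile scaling 1 higher and 47 lower in FaDu and 3 higher in SQ20B, and no background correction 24 FaDu to SQ20B differences. The cause was not tested. With 1 array left out, medians were 0.10 to 0.13 (all subunits), 0.078 to 0.13 (I), -0.071 to 0.063 (II), 0.039 to 0.12 (III), 0.19 to 0.25 (IV), 0.093 to 0.16 (V) in SCC-25. They were -0.043 to -0.023 (all subunits), -0.050 to -0.0070 (I), -0.077 to -0.022 (II), -0.043 to 0.037 (III), 0.033 to 0.079 (IV), -0.14 to -0.11 (V) in Cal-27. They were -0.19 to -0.16 (all subunits), -0.17 to -0.094 (I), -0.16 to 0.016 (II), -0.38 to -0.32 (III), -0.14 to -0.10 (IV), -0.31 to -0.23 (V) in FaDu. They were -0.31 to -0.29 (all subunits), -0.21 to -0.17 (I), -0.37 to -0.21 (II), -0.72 to -0.60 (III), -0.099 to -0.059 (IV), -0.53 to -0.47 (V) in SQ20B. Counts with 1 array left out were 17 to 21 higher and 2 to 5 lower in SCC-25, 3 higher and 4 to 8 lower in Cal-27, 1 to 2 and 22 to 31 in FaDu, 6 to 7 and 37 to 43 in SQ20B, and 15 to 21 and 9 to 12 differences of change. The labels do not say whether array numbers pair the samples. Deviations of same-numbered arrays correlated at -0.07 to 0.08, which shows no large shared shift by number but cannot exclude pairing. With the replicate number as a block, counts were 19 higher and 5 lower in SCC-25, 3 and 5 in Cal-27, 2 and 29 in FaDu and 7 and 42 in SQ20B, with 18 and 12 differences of change and 38 and 50 between parental lines. The slide as a block and the NDUFA4 alternative were not run. The number of arrays limits the precision, and changes of probes near background are bounds or are uncertain in size.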

Other observations

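Of 9 genes of the hypoxia response that act on mitochondria, 3 rose in SCC-25, 3 rose and 1 fell in Cal-27, 1 rose and 2 fell in FaDu, and 3 rose and 1 fell in SQ20B. The share that rose was 33.3% for SCC-25 and for Cal-27, beside 14.7% and 16% of all tested genes. It was 33.3% for SQ20B, beside 28.1%, and 11.1% for FaDu, beside 20.2%. Falls made up 11.1% of the list for Cal-27 and for SQ20B, under the 16.8% and 25.4% of all genes. For FaDu they made up 22.2%, beside 19.8%, and for SCC-25 0%, beside 15%. The median change of the list was 0.21 for Cal-27, 0.11 for SQ20B, -0.03 for SCC-25 and -0.14 for FaDu. LDHA values given next are those of 1 gene and do not stand for the list. LDHA, which turns pyruvate into lactate, fell by 1.05 ± 0.09 in FaDu and 1.51 ± 0.09 in SQ20B, and by 0.29 ± 0.07 in Cal-27, and it changed by -0.15 ± 0.07 in SCC-25, which was not called (limma, adjusted p of 1.13e-06, 1.6e-08, 0.00909 and 0.159 in that order).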
